A study of Homo sapiens with 6 samples.

Results

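The RNAs described here are 8 long noncoding RNAs that are widely studied in cancer: MALAT1, NEAT1, TUG1, PVT1, UCA1, H19, MIR22HG and KCNQ1OT1. They were taken by their symbols from a table of gene counts with 40173 rows, and all 8 had a row. Enough reads for a test were counted for 7 of them, among 15250 tested genes, and KCNQ1OT1 fell below the filter on low counts. The libraries came from A549, a human lung adenocarcinoma cell line, in which FAM83H-AS1, itself a long noncoding RNA, was silenced with an siRNA (3 libraries, called silenced) or which received a negative control (3 libraries, called control). Cells were harvested on the day after transfection, and libraries made from their total RNA were sequenced on an Ion Proton. The paper does not say whether poly(A) RNA was selected or rRNA removed. The design is limited to 1 cell line, and which siRNA was used for sequencing is not given in the sources used here. The question was which of these RNAs changed in level with FAM83H-AS1 silenced.

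Long noncoding RNAs are transcripts that are processed much like mRNAs but encode no known protein, and they act as RNA, often by holding proteins together. MALAT1 and NEAT1 stay in the nucleus, where MALAT1 gathers in speckles rich in splicing factors and NEAT1 builds paraspeckles, bodies that hold proteins and edited RNAs. H19 and KCNQ1OT1 come from neighbouring imprinted domains on chromosome 11, H19 from the maternal and KCNQ1OT1 from the paternal allele. H19 and MIR22HG also carry microRNAs within their transcripts. UCA1, TUG1 and PVT1 are best known from tumours, where raised levels have been linked with growth, and PVT1 is the neighbour of the MYC oncogene.

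Library totals ranged from 9738291 to 17742643 counts, TMM factors from 0.955 to 1.02, and 21021 to 22202 genes were detected per library. FAM83H-AS1 was at 14.5, 16.0 and 17.3 counts per 1000000 counts (CPM, scaled to the TMM-normalized library size) in the control libraries and at 4.59, 4.44 and 5.58 in the silenced ones, 30.6% of the control mean (log2 fold change -1.70, SE 0.148, edgeR adjusted p = 7.99e-05). Of the markers listed for epithelial cells, 6 of 6 were in the table and tested. At an edgeR adjusted p under 0.05, 2 were lower, beside 8.27% of all tested genes. These were KRT7 (log2 fold change -0.57, adjusted p = 0.00116) and KRT18 (-0.43, 0.00266). KRT8 (-0.20, 0.121), KRT19 (-0.36, 0.571), EPCAM (-0.17, 0.659) and CDH1 (0.82, 0.112) did not pass. The 6 summed to 4428 to 4727 CPM in the control and 3533 to 3574 CPM in the silenced libraries. Nearly all of this came from KRT7, KRT8 and KRT18. The 5 leukocyte markers summed to 1.04 to 2.06 CPM in the control and 1.56 to 2.30 CPM in the silenced libraries, with CD3E and LYZ at 0 in every library. The part of these markers in the results was not tested, and in bulk samples fewer cells of a type and less RNA per cell cannot be told apart. The RNA5-8SP6 row, an rRNA pseudogene, took 3.22% of the counts of control library 3 and 0.241% to 0.448% in the others. Nothing says that the libraries of a group came from separate cultures, so the p-values measure the spread between these libraries, which may be technical. With 3 libraries against 3, an exact permutation test of a single value cannot go below p = 0.1.

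The sequences below show where the nuclear RNAs MALAT1 and NEAT1 carry an element that most RNAs lack. In their long forms, neither ends in a poly(A) tail: each is cut by RNase P, and the new end is held in a triple helix of U-rich runs and an A-rich tract. The 110 bases from the transcripts MALAT1-202 (8708 bases) and NEAT1-202 (22743 bases), in GENCODE 29 on GRCh38, are shown with the U-rich runs and the A-rich tract in capitals. The A-rich tract was searched as AAAAA or longer, then GC, then AAAA or longer, and each U-rich run as TTT or longer, then C or GC, then TTTT or longer. The tract pattern matched at 2 places in MALAT1-202 and 1 in NEAT1-202, and the window shown ends at a match with 2 U-rich runs before it in the 110 bases. The window spans bases 8246 to 8355 of MALAT1-202, with the first U-rich run at base 8268 and 353 bases after the window, and bases 22634 to 22743 of NEAT1-202, with the first run at base 22656 and the window at the annotated end.
MALAT1: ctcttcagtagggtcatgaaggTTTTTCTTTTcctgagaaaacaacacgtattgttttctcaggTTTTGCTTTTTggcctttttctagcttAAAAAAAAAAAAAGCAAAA
NEAT1: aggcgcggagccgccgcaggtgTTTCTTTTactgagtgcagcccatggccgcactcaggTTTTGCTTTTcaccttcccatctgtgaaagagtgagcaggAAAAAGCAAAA

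The microRNAs inside H19 and MIR22HG are shown because the host RNA is their precursor. Each host carried both arms of its hairpin within the annotated gene, by RefSeq on GRCh38.p14. Capitals mark the seed, bases 2 to 8, and the 4 seeds differed from each other.
hsa-miR-675-5p: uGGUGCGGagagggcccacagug
hsa-miR-675-3p: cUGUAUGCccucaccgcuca
hsa-miR-22-5p: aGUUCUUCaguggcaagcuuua
hsa-miR-22-3p: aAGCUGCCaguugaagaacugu

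Among the 7 tested RNAs, 5 had an edgeR quasi-likelihood adjusted p under 0.05: MALAT1, NEAT1 and UCA1 were higher in the silenced libraries, and TUG1 and H19 were lower. Of all tested genes, 17.0% passed the same threshold, 8.75% higher and 8.27% lower. MIR22HG and PVT1 did not pass. None of the 7 changed more than 2-fold with an adjusted p under 0.05, by edgeR or DESeq2, where 2.14% of all genes did (6 of the 7 had an unadjusted p under 0.05). The control and silenced libraries did not overlap for any of the 7 tested RNAs, as for 36.6% of all tested genes. Their median log2 fold change was 0.27, and the median absolute value 0.390, beside a median absolute value of 0.199 over all tested genes. Of the 428 tested genes that RefSeq types as long noncoding RNA, 9.58% passed, 23 higher and 18 lower. The 8 RNAs were chosen with earlier results of these data known. By mean count, MALAT1 ranked 23, NEAT1 39, H19 186, UCA1 574, TUG1 2660, MIR22HG 5880 and PVT1 6282 among the 15250 tested genes. The shares above are not matched for count depth, and whether the members differ from them was not tested.

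**Figure D1:**
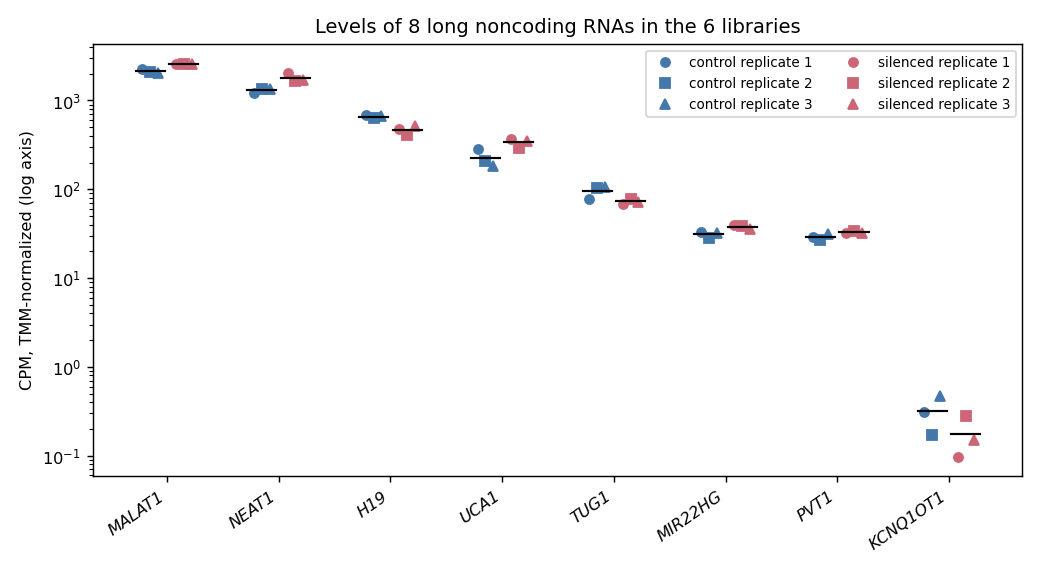
Levels of the 8 long noncoding RNAs in each of the 6 libraries (vertical log axis, CPM scaled to the TMM-normalized library size), with control and silenced libraries side by side for each RNA and a bar at each group mean. MALAT1 reached 2014 to 2266 CPM in the control libraries, whereas KCNQ1OT1 stayed at 0.473 CPM or less in all 6 libraries.

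MALAT1 was at 2266, 2100 and 2014 CPM in the control libraries and at 2601, 2544 and 2555 CPM in the silenced ones. All 3 silenced libraries lay above all 3 control libraries, and they differed little among themselves. The mean rose from 2127 ± 128 to 2567 ± 30.0 CPM (SD, n = 3 for both groups), and the log2 fold change was 0.27 (SE 0.0704, 95% interval 0.117 to 0.426, edgeR adjusted p = 0.0242), or 1.21-fold. The single-exon transcript was the 23rd most counted gene of the table, with 22045 to 34379 counts per library. The call was lost without control 2 (adjusted p = 0.078), control 3 (0.0623), silenced 1 (0.0885) or silenced 3 (0.0564), with log2 fold changes between 0.23 and 0.32 when any library was left out.

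NEAT1 was at 1212, 1356 and 1341 CPM in the control libraries and at 2064, 1651 and 1715 CPM in the silenced ones. Silenced library 1 stood highest, and the groups did not overlap. The mean rose from 1303 ± 79.3 to 1810 ± 222 CPM (SD, n = 3 for both groups), and the log2 fold change was 0.47 (SE 0.0921, 95% interval 0.272 to 0.676, edgeR adjusted p = 0.00668), or 1.39-fold. NEAT1 passed the threshold whichever library was left out, with log2 fold changes from 0.37 to 0.54. The gene makes a short polyadenylated form and the long form that scaffolds paraspeckles, and gene counts do not tell them apart. Both genes lie on the plus strand of chromosome 11 in GRCh38, NEAT1 at 65422774 to 65445540 and MALAT1 at 65497688 to 65506516, with 52147 bases between them. The ratio of NEAT1 to MALAT1 CPM was 0.535, 0.646 and 0.666 in the control and 0.794, 0.649 and 0.671 in the silenced libraries. These ranges overlapped, and the difference between the means of 0.615 ± 0.0706 and 0.705 ± 0.0779 (SD, n = 3 each) had p = 0.2 by a two-sided exact permutation test.

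RNAs that usually end without a poly(A) tail, among them spliceosomal snRNAs, RN7SK and histone mRNAs, were set beside MALAT1 and NEAT1. Of 24 such genes, 23 were in the table and 21 were tested. None was higher and 14 were lower in the silenced libraries at an edgeR adjusted p under 0.05, with a median log2 fold change of -1.63. Of all tested genes, 8.75% were higher and 8.27% were lower, with a median of -0.0007. Their summed level was 572, 583 and 1563 CPM in the control libraries and 422, 317 and 461 CPM in the silenced ones. Control library 3 stood far above the others. Without it, 5 were lower and the median was -0.83, and without silenced library 1, 4 were lower. DESeq2 put 7 of them lower. RNU1-1 (-4.19, adjusted p = 0.017), RNU5A-1 (-3.48, 0.0274), RNU5B-1 (-2.70, 0.0434) and RNU4-2 (-2.60, 0.0269), spliceosomal snRNAs, showed the largest changes. The first lost its call without silenced library 3 (0.0542), and the other 3 lost theirs without control library 3 (0.0875, 0.256 and 0.11), silenced library 1 or silenced library 2. Of the 14, 3 passed with any library left out, the histone genes HIST1H1C (-1.30), HIST1H2BK (-1.30) and HIST1H2AC (-1.07), which were singled out after their values were seen. HIST1H2BK had 520, 536 and 712 counts in the control libraries, without the jump in control library 3 of RNU5A-1 (40, 38 and 637). Whether the histone transcripts counted here lacked a poly(A) tail was not measured. In control library 3, highest in these RNAs, MALAT1 was at 2014 CPM, the lowest of the control libraries, and NEAT1 at 1341 CPM, between the other two. The NEAT1 counts do not separate its long form from its short polyadenylated form. The part of library capture in the MALAT1 and NEAT1 values was not tested.

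**Figure D2:**
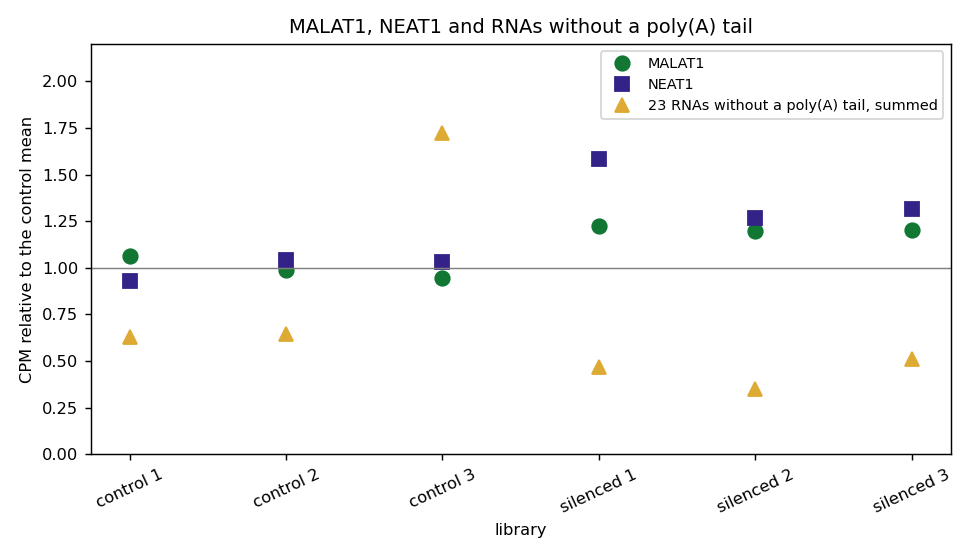
Levels of MALAT1, NEAT1 and the sum of 23 RNAs that usually end without a poly(A) tail in each library (horizontal axis), as CPM divided by the mean of the control libraries (vertical axis, linear). The sum ran from 572 to 1563 CPM in the control and from 317 to 461 CPM in the silenced libraries, while MALAT1 and NEAT1 lay higher in all 3 silenced libraries than in any control library.

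The proteins that work with these nuclear RNAs were taken from lists of known partners. Of 16 paraspeckle proteins, all tested, 0 were higher and 4 were lower by edgeR, among them DAZAP1 (log2 fold change -0.38, adjusted p = 0.0119), RBM14 (-0.36, 0.022) and HNRNPM (-0.25, 0.0220). The median of the list was -0.10, beside -0.0007 over all tested genes, of which 8.75% were higher and 8.27% were lower. The core pair NONO (0.02, adjusted p = 0.878) and SFPQ (-0.19, 0.136) did not pass, nor did the RNA-binding protein HNRNPK (0.02, 0.902). Without silenced library 1, none of the 4 passed (adjusted p of 0.066, 0.0962 and 0.107 for the named genes), and the count ran from 0 to 4 over the libraries left out. RBM14 was also lost without control 1, control 3 or silenced 2, and HNRNPM without control 2 or control 3. Of 16 nuclear speckle proteins, the splicing factors SRSF2 (-0.35, adjusted p = 0.00830) and SRSF1 (-0.33, 0.0114) were lower and 0 were higher, whichever library was left out. With all libraries kept, 8.27% of all tested genes were lower and 8.75% were higher.

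Of 13 factors listed for end processing and the triple helix of MALAT1 and NEAT1, 0 were higher and 4 were lower by edgeR. These were the RNase P subunits RPP21 (log2 fold change -0.53, adjusted p = 0.0299), POP4 (-0.37, 0.0344) and RPP25 (-0.37, 0.0143), and ELAC2 (-0.35, 0.0150), the RNase Z that trims the tRNA-like fragment of MALAT1. METTL16, which binds the MALAT1 helix, was at -0.09 (0.435). Each of the 4 lost its call with some library left out, RPP25 without silenced 1 (0.0676), ELAC2 without silenced 1 (0.0739) or silenced 3 (0.0505), POP4 with largest adjusted p of 0.124 without control 2, and RPP21 with 0.0883 without control 1. POP4 was also lost without control 3, silenced 1 or silenced 2, and RPP21 without control 2, silenced 2 or silenced 3. The list's median was -0.09, and of all tested genes 8.75% were higher and 8.27% were lower.

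Of 19 genes for nuclear RNA decay, 0 were higher and 4 were lower by edgeR, beside 8.75% and 8.27% of all tested genes. Among the 4 that passed, the exosome subunits EXOSC5 (log2 fold change -0.61, adjusted p = 0.00312) and EXOSC4 (-0.57, 0.0117) fell most. They were followed by MPHOSPH6 (-0.38, 0.0494), an exosome cofactor, and PABPN1 (-0.29, 0.0358), a nuclear poly(A)-binding protein. EXOSC5 passed whichever library was left out. EXOSC4 was lost without silenced 1 (0.0544), MPHOSPH6 with any library left out (0.0843 to 0.133), and PABPN1 without control 1, control 2, silenced 1 or silenced 3 (0.0756 to 0.133).

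H19 and KCNQ1OT1 are the imprinted members. H19 was at 678, 638 and 661 CPM in the control libraries and at 476, 410.0 and 511 CPM in the silenced ones. The highest silenced library lay below the lowest control library. The mean fell from 659 ± 20.0 to 466 ± 51.2 CPM (SD, n = 3 for both groups), and the log2 fold change was -0.50 (SE 0.0843, 95% interval -0.686 to -0.316, edgeR adjusted p = 0.00329). The call held with any library left out, at log2 fold changes from -0.58 to -0.42.

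H19 lies on the minus strand at chromosome 11, 1995176 to 2001470 in GRCh38. IGF2, its oppositely imprinted neighbour and a growth factor gene, had 0 or 1 counts in each library, too few for a test. MIR675, the hairpin row inside H19, had 4, 5 and 3 counts in the control and 6, 4 and 2 in the silenced libraries, also too few. MRPL23, a mitochondrial ribosomal protein gene next to H19, was at -0.03 on the log2 scale (edgeR adjusted p = 0.890).

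KCNQ1OT1 had 3, 2 and 8 counts under control conditions, compared with 1, 3 and 2 counts after silencing. The groups overlapped, and 13 against 6 counts left a difference that was not detectable at this depth (two-sided exact permutation p = 0.2). Fitted without the filter on low counts, its log2 fold change was -0.90 with an SE of 0.852 and an edgeR adjusted p of 0.617 over 25864 genes. Its 91667 bases lie on the minus strand inside KCNQ1, a potassium channel gene on the plus strand, and with no strand setting given, reads of the 2 genes cannot be told apart where their exons overlap. KCNQ1 was at -0.16 (adjusted p = 0.354). The other genes of the domain, among them the cell cycle inhibitor CDKN1C (-0.25, 0.0899) and the placental growth regulator PHLDA2 (0.09, 0.668), SLC22A18 (0.05, 0.782), SLC22A18AS (0.16, 0.387), CD81 (-0.09, 0.415) and TSSC4 (-0.15, 0.366), had no adjusted p under 0.05 by edgeR.

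Of the RNAs known from tumours, UCA1 was at 281, 207 and 182 CPM in the control libraries and at 369, 292.5 and 351 CPM in the silenced ones. Control 1 came closest to the silenced libraries, but the groups did not overlap. The mean rose from 223 ± 51.8 to 337.5 ± 40.0 CPM (SD, n = 3 for both groups), and the log2 fold change was 0.60 (SE 0.143, 95% interval 0.287 to 0.913, edgeR adjusted p = 0.0165), or 1.52-fold. It was the highest fold change of the 7 tested RNAs. The call was lost without control 2 (0.0664) or silenced 1 (0.0735), and the log2 fold change reached 0.80 without control 1. The gene lies at chromosome 19, 15828206 to 15836326 in GRCh38. Of the cytochrome genes listed around it, CYP4F12 was at 0.79 (adjusted p = 0.12). CYP4F11 (0, 4 and 1 counts in the control and 5, 9 and 6 in the silenced libraries) and CYP4F2 (0 in every library) had too few counts for a test.

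TUG1, a nuclear and cytoplasmic RNA that p53 can induce, was at 78.2, 103 and 105 CPM in the control libraries and at 69.1, 76.9 and 72.6 CPM in the silenced ones. Control 1 lay just above the silenced range, and the groups did not overlap. The mean fell from 95.3 ± 14.8 to 72.9 ± 3.91 CPM (SD, n = 3 for both groups), and the log2 fold change was -0.39 (SE 0.108, 95% interval -0.628 to -0.152, edgeR adjusted p = 0.0320). Without control 2 (0.104), control 3 (0.0904), silenced 1 (0.121) or silenced 3 (0.0719) the call was lost, and the log2 fold change ran from -0.51 to -0.32 over the libraries left out. TUG1 lies on the plus strand at chromosome 22, 30969245 to 30979395 in GRCh38. MORC2, the chromatin-protein gene beside TUG1, was at -0.05 (0.682).

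PVT1 was at 28.7, 27.0 and 31.2 CPM in the control libraries and at 32.1, 33.8 and 32.0 CPM in the silenced ones. The groups lay close together without overlapping. Its log2 fold change was 0.17 (SE 0.0891, 95% interval -0.0253 to 0.366, edgeR adjusted p = 0.215), so that neither no change nor a rise to 1.29-fold was outside the interval. PVT1 lies on the plus strand at chromosome 8, 127794533 to 128101253 in GRCh38. MYC, the neighbouring oncogene, was at 269 ± 18.99 and 219.6 ± 18.6 CPM (SD, n = 3 for both groups), and the log2 fold change was -0.29 (SE 0.0826, edgeR adjusted p = 0.0334). That call was lost without control 1, control 3, silenced 2 or silenced 3 (0.0565 to 0.098). By qRT-PCR and western blot, the paper reports that silencing FAM83H-AS1 left MYC without a significant change.

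MIR22HG, host of miR-22 and a stress-induced RNA, was at 33.0, 28.4 and 31.9 CPM in the control libraries and at 39.4, 38.5 and 35.8 CPM in the silenced ones. Every silenced library was above every control library. The log2 fold change was 0.28 (SE 0.0899, 95% interval 0.0843 to 0.479, edgeR adjusted p = 0.0530), just above the threshold of 0.05. The MIR22 hairpin row had a single count over all 6 libraries. MIR22HG lies on the minus strand at chromosome 17, 1711493 to 1717174 in GRCh38. Among its neighbours, WDR81 was lower (-0.37, SE 0.0846, adjusted p = 0.0133, but 0.0609 without silenced 1), and TLCD2 (0.27, 0.182) and SERPINF2 (-0.10, 0.846) did not pass.

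**Figure D3:**
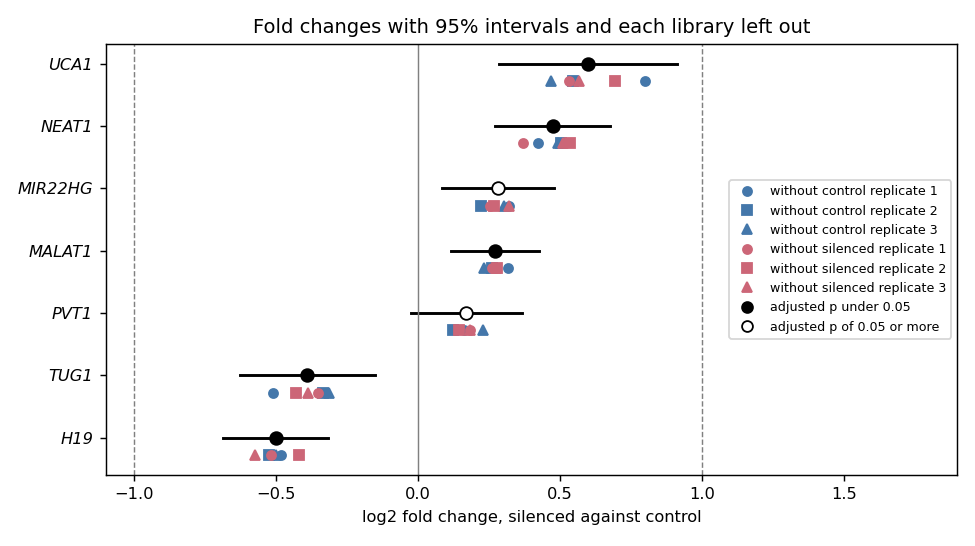
Log2 fold changes of the 7 tested RNAs between silenced and control libraries (horizontal axis), as black circles with 95% intervals, filled where the adjusted p was under 0.05 and open otherwise. Coloured symbols below give the values with 1 library left out, whatever their p, and dashed lines mark a 2-fold change. UCA1, NEAT1 and MALAT1 lie above 0 and H19 and TUG1 below, and the interval of PVT1, from -0.0253 to 0.366, holds 0.

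Around NEAT1 and MALAT1, SLC25A45, a mitochondrial carrier gene, rose from 27.7 to 46.3 CPM (log2 fold change 0.74, SE 0.0935, edgeR adjusted p = 7.32e-04) and passed with any library left out. LTBP3, which binds latent TGF-beta, was lower (-0.30, 0.0315). It was lost without control 1, control 3, silenced 1, silenced 2 or silenced 3 (0.0528 to 0.115). FRMD8 (0.10, 0.435) did not pass. Neither did MIR612 (-0.15, 0.865), a microRNA row with 4 to 16 counts per library, listed with the neighbouring and overlapping genes. Over the neighbours and overlapping genes of all 8 RNAs, 19 of 31 in the table were tested. Of these, 1 was higher and 3 were lower, beside 8.75% and 8.27% of all genes, with a median of -0.05.

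PRC2, the complex that writes the repressive H3K27me3 mark, is a partner often described for several of these RNAs. Of its 11 listed subunits, 1 was higher and 2 were lower by edgeR, beside 8.75% and 8.27% of all tested genes. The subunits that passed were JARID2 (log2 fold change 0.30, adjusted p = 0.0200), PHF19 (-0.62, 0.00162) and RBBP4 (-0.25, 0.0449). The catalytic subunit EZH2 was at 0.05 (0.700). PHF19 passed with any library left out. JARID2 was lost without control 2, control 3, silenced 1 or silenced 3 (0.061 to 0.0742), and RBBP4 with every library but silenced 2 left out (0.0581 to 0.188).

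Of 48 other cancer-associated long noncoding RNAs, 43 were in the table and 31 were tested. Among the tested ones 2 were higher and 2 were lower, beside 8.75% and 8.27% of all tested genes. LUCAT1, a stress-induced RNA, rose from 1.63 to 4.87 CPM (log2 fold change 1.55, SE 0.272, edgeR adjusted p = 0.0042), past the 2-fold limit that none of the 7 members reached. LINC00673 was higher (0.88, 0.00520), and FENDRR (-0.53, 0.00369) and DANCR (-0.38, 0.0133) were lower. DANCR alone of these lost its call, without control 3 (0.0539).

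Compared per length, the order of levels could be given in CPM per kilobase of the longest RefSeq-matched transcript of each gene. These were 2348 bases for H19, 8708 for MALAT1, 2025 for UCA1, 22743 for NEAT1, 1699 for PVT1, 7469 for TUG1 and 2626 for MIR22HG. In the control libraries H19 was highest at 281 ± 8.51 CPM per kilobase, then MALAT1 at 244 ± 14.7, UCA1 at 110 ± 25.6 and NEAT1 at 57.3 ± 3.49 (SD, n = 3 each). PVT1 followed at 17.0 ± 1.22, and TUG1 at 12.8 ± 1.98 and MIR22HG at 11.9 ± 0.913 overlapped each other. KCNQ1OT1 was lowest at 0.00347. In the silenced libraries MALAT1 stood at 295 ± 3.44 and H19 at 198 ± 21.8, and MIR22HG at 14.4 ± 0.714 and TUG1 at 9.76 ± 0.523. Which of these RNAs ranked higher depended on the transcript taken as the length. With the shortest matched transcripts, H19 (989 bases) stood at 666 ± 20.2 in the control and 471 ± 51.8 in the silenced libraries, above MALAT1 in both groups. MIR22HG (1383 bases) then stood at 22.5 ± 1.73 and 27.4 ± 1.36, above TUG1 (7084 bases) at 13.5 ± 2.09 and 10.3 ± 0.552 in both groups, and above PVT1. NEAT1 (3524 bases) would stand at 370 ± 22.5 and 514 ± 63.0, above MALAT1 in both groups.

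The 8 RNAs together held 0.457%, 0.449% and 0.416% of the counts under control conditions, compared with 0.573%, 0.515% and 0.525% after silencing. The groups did not overlap. MALAT1 and NEAT1 made up 76.0% to 77.5% of these counts in the control and 81.0% to 83.1% in the silenced libraries. The ratio of UCA1 to H19 CPM, which joins the highest rise and the largest fall, was 0.415, 0.324 and 0.275 in the control and 0.775, 0.713 and 0.687 in the silenced libraries. It went from 0.338 ± 0.0711 to 0.725 ± 0.0452 (SD, n = 3 each), but this pair was chosen for its changes and gets no test.

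**Figure D4:**
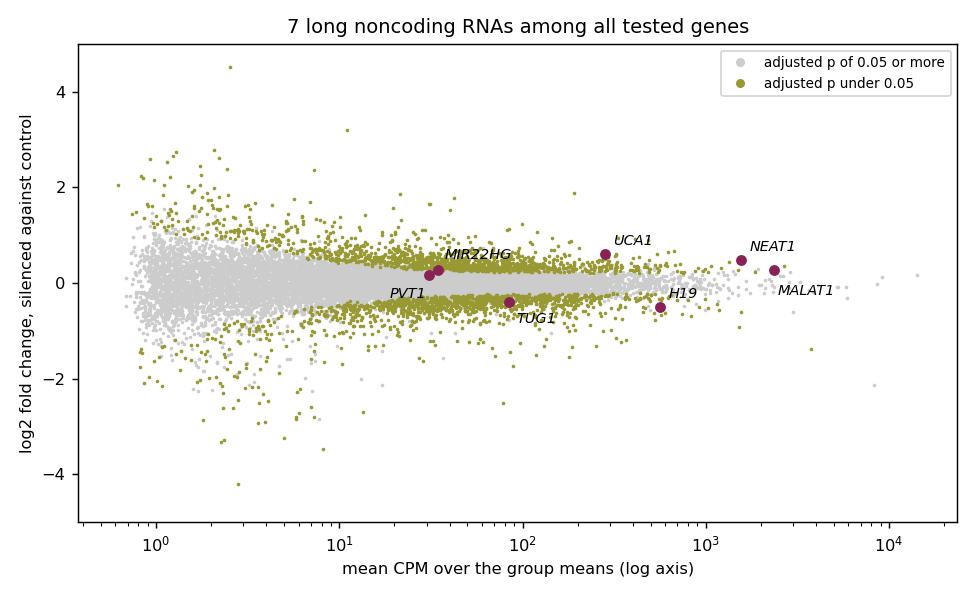
Log2 fold change of every tested gene against its mean CPM (horizontal log axis), with the 7 tested long noncoding RNAs marked. The marked RNAs lie between -0.50 and 0.60, inside the spread of other genes.

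The promoters of the 2 RNAs that fell are shown, since they differ in make-up. RefSeq promoters of 300 bases (250 before to 50 after the start, GRCh38.p14) were matched for 4 of the 8 RNAs: H19, MALAT1, MIR22HG and TUG1. The motifs below were searched on both strands, and 11.5% of 35116 promoters held TATAAA, 34.6% CCAAT and 45.0% GGGCGG. Capitals mark the CCAAT and GGGCGG matches, on either strand. H19 (chr11:2001217-2001516, minus strand) held none of the 3 and had 6 CpG, while TUG1 (chr22:30969015-30969314, plus strand) held CCAAT at 2 places and GGGCGG at 4 and had 28 CpG, beside a median of 14 over all promoters.
H19: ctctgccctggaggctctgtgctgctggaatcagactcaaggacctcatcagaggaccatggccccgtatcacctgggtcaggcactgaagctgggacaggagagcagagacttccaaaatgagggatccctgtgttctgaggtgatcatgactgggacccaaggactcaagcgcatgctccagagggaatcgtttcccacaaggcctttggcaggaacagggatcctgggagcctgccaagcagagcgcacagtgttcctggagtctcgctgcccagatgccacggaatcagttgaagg
TUG1: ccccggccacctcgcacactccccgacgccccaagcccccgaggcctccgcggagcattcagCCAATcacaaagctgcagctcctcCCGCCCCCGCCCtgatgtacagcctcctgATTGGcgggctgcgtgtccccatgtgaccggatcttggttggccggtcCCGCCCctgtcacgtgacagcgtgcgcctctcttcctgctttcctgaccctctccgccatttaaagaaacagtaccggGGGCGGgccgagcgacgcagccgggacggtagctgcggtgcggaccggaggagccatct

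MIR22HG held CCAAT at 2 and GGGCGG at 3 places. MALAT1 had 2 annotated starts, of which one promoter held GGGCGG at 5 places and the other TATAAA once. These matches describe letters only, and whether a factor binds there was not measured.

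For each tested RNA the gene whose pattern over the 6 libraries was most like it was found by the root mean square difference of gene-centred log2 CPM, over 12130 genes with a mean of at least 50 counts. MALAT1 was nearest to ZFAND3 (0.0174, against a median of 0.203 over all genes compared), NEAT1 to ITGA2 (0.0527, 0.291) and UCA1 to CYP11A1 (0.0761, 0.399). H19 was nearest to ANKH (0.0395, 0.301), TUG1 to MT1E (0.0425, 0.276), PVT1 to SMCR8 (0.0238, 0.181) and MIR22HG to TIAF1 (0.0196, 0.214). Over only 6 libraries this is a description of likeness.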

How the data were processed

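Libraries made from total RNA of A549 cells (3 control and 3 FAM83H-AS1-silenced samples) were sequenced on an Ion Proton. The paper names no poly(A) selection or rRNA removal. The authors mapped reads and counted them per gene with MapSplice, and deposited a table of whole counts without normalization. GRCh37 is named in the submitters' processing notes. Strand use and treatment of reads with several matches are not given in the sources used here. Of 40173 rows, 14309 were 0 in all libraries. Totals of 9738291 to 17742643 counts set the precision.

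Counts were analysed with edgeR 4.0.16 in R 4.3.3: filterByExpr, TMM, quasi-likelihood fits with F tests, and p-values adjusted for 15250 genes after Benjamini and Hochberg. The SE was taken as the size of the log2 change over the root of its F value. On counts simulated for this comparison (15250 genes, 200 changed by 1.5 on the log2 scale), edgeR called all 200 and 1 other gene. A call there needed an adjusted p under 0.05 and a change over 2-fold, and the simulated spread depended on level alone. The members changed less, so the simulation does not measure how well changes of their size are found. DESeq2 1.42.0, other scalings, filters and thresholds, a replicate block, thinning and each library left out were alternatives. Exact permutation tests used scipy 1.17.1. The 8 members and all gene lists were chosen with earlier results of these data known. Named were the members, FAM83H-AS1, tested neighbours, at most 4 genes per other list with adjusted p under 0.05 and the largest change, fixed partner genes whatever their values (HNRNPK, NONO, SFPQ, METTL16, ELAC2, EZH2), and the gene most like each tested member. Some genes that this rule names are not reported here. Locations and transcripts were matched by symbol in GENCODE 29 on GRCh38, and promoters and microRNAs in RefSeq on GRCh38.p14.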

Additional observations from a re-analysis of the deposited data

How the results depend on the processing

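Of 112 values (7 RNAs under 16 alternatives), 0 were reversed in direction, 96 kept their direction and side of the threshold, 13 lost significance and 3 gained it. The gains were MIR22HG under library size only (log2 fold change 0.32, edgeR adjusted p = 0.0388), under the replicate block (0.28, 0.0393) and with counts thinned to the smallest library (0.33, 0.032). With an adjusted p under 0.01 in place of 0.05, 2 RNAs remained (NEAT1 and H19), and MALAT1 (0.27), TUG1 (-0.39) and UCA1 (0.60) did not pass, while 903 of all genes passed and 148 were over 2-fold. Genes over 2-fold numbered 583 with no filter on low counts and 199 with at least 10 counts in every library, against 326. With each library left out, 2 to 5 RNAs passed and 0 to 0 were over 2-fold, all genes passing ranged from 1225 to 1962 and those over 2-fold from 200 to 335, and FAM83H-AS1 ranged from -1.82 to -1.64, MALAT1 from 0.23 to 0.32, NEAT1 from 0.37 to 0.54, TUG1 from -0.51 to -0.32, PVT1 from 0.12 to 0.23, UCA1 from 0.47 to 0.80, H19 from -0.58 to -0.42 and MIR22HG from 0.22 to 0.32. Correlations of same-numbered libraries' deviations were 0.124, 0.149 and 0.067, and those of other numbers ran from -0.112 to 0.0182. Each library thus correlated best with its own number. The labels do not say that the numbers are pairs, so the main fit did not use them, and whether they are pairs is not settled. With the replicate block, 3449 genes passed against 2595, and 6 of the 7 RNAs did. The SE of each of the 7 was smaller, as for UCA1 (0.0965 against 0.143) and TUG1 (0.0794 against 0.108). KCNQ1OT1 was below the filter. Transcript length, an alternative chosen after seeing the data, changed the order of levels per kilobase, as given with those levels. The causes of these differences were not tested.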
